A study of Mus musculus with 15 samples.

Results

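The histone marks at 10 immediate early genes, Fos, Fosb, Jun, Junb, Egr1, Egr4, Nr4a1, Nr4a2, Nr4a3 and Atf3, were examined in mouse pancreatic islets. The 10 genes were chosen by name, with earlier results of these data known and by no threshold on a measured value, from the 22028 protein-coding genes of the GENCODE annotation (GRCm38). A peak was counted at a gene when it overlapped 1.0 kb on either side of the gene start (the 5′ end of the GENCODE gene), and in its locus when it overlapped the gene or 20.0 kb on either side. The islets came from CBA mice, male per the study's methods, that were put on diets at 10 weeks of age and kept on them for 9 weeks by the methods, though 10 weeks is given elsewhere in the study: regular chow (RD), a high-fat diet (HFD), or the same high-fat diet formulated with O304 (HFD-O304), a small molecule that activates AMP-activated protein kinase, at 0.8 mg per g. ChIP-seq for H3K27Ac and H3K27Me3 was done on pooled islets, about 600 per experiment, so each sample mixed the cell types of the islet and several animals. The 15 samples were 12 ChIP samples, 2 for each mark and diet, and 3 inputs. Peak calling was done on the 2 replicates combined, which left 1 peak list for each of the 2 marks in each of the 3 diets. Differences between diets therefore have no replicate check and no test, and the intervals below cover counting error only.

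Immediate early genes are switched on within minutes of a stimulus, without new protein synthesis, by transcription factors that already sit at their promoters. In the islet β-cell, glucose, membrane depolarization, calcium and cyclic AMP are known inducers. Their products are themselves transcription factors: Fos, Fosb, Jun and Junb encode subunits of the dimeric factor AP-1, Egr1 and Egr4 encode zinc finger factors, Nr4a1, Nr4a2 and Nr4a3 encode orphan nuclear receptors, and Atf3 encodes a stress-induced member of the ATF/CREB family. H3K27Ac marks active promoters and enhancers, and H3K27Me3 is the mark laid down by Polycomb repressive complex 2.

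The 250 bases upstream of the RefSeq start (GRCm38.p6, both strands searched) are shown for 5 genes on which the comparisons below turn: Fos with one of the widest acetylated starts, Nr4a1 and Atf3 with a RefSeq start far from the GENCODE gene start, Nr4a3 with both marks nearby, and Egr4 with H3K27Me3 alone. They lie at chr12:85473640-85473889 (Fos, plus strand), chr15:101266596-101266845 (Nr4a1, plus strand), chr4:48045055-48045304 (Nr4a3, plus strand), chr6:85513590-85513839 (Egr4, minus strand) and chr1:191183334-191183583 (Atf3, minus strand). Capitals mark the core of the cyclic AMP response element (CRE), TGACG, or CGTCA where the core lies on the other strand, the EGR motif GCGNGGGCG or its reverse complement, and the TATA box TATAAA.
Fos: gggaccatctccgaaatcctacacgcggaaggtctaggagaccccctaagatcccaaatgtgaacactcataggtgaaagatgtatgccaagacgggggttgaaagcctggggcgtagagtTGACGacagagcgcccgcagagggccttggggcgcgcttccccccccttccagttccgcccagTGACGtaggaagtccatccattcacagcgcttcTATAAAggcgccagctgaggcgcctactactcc
Nr4a1: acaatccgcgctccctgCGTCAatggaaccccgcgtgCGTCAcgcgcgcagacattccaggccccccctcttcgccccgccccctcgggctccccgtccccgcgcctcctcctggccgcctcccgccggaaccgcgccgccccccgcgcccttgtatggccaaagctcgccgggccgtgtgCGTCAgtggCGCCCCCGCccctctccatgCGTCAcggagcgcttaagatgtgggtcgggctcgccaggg
Nr4a3: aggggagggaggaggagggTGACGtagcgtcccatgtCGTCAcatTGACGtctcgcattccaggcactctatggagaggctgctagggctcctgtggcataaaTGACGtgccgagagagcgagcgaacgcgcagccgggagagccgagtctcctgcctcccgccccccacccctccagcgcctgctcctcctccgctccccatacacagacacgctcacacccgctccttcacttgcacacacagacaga
Egr4: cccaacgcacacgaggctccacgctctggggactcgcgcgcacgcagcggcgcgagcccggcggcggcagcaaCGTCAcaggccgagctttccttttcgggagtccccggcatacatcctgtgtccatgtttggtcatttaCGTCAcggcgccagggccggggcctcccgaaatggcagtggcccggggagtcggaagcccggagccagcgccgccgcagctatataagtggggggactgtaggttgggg
Atf3: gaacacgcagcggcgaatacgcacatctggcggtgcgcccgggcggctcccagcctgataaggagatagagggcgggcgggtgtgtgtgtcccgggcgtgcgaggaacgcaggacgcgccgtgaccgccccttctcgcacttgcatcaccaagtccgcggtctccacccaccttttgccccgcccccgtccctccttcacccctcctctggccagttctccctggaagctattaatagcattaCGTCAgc

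The RefSeq promoter table held 9 of the 10 genes, all but Egr1. The CRE core occurred upstream of 8 of these 9, all but Jun, against 17.8% of all 32851 RefSeq promoters of the same 250-base length. Nr4a1, Nr4a2 and Nr4a3 each held 4 cores, Fos and Egr4 held 2, and Fosb, Junb and Atf3 held 1. The full palindrome TGACGTCA, of which the core is a part, occurred in none of the 9 and in 1.55% of all promoters. The EGR motif occurred upstream of Fosb, Nr4a1 and Nr4a2 (4.70% of all promoters), and the TATA box letters upstream of Fos and, on the other strand, Nr4a2 (12.4% of all promoters). The AP-1 motif TGANTCA (6.75% of all promoters) and the CArG box of the serum response element (1.47%) were not found in these windows. Bases farther upstream, and any promoter of Egr1, were not searched, so sites there cannot be judged. The 9 stretches held between 15 CpG sites in Fos and Jun and 44 in Nr4a2, where the median RefSeq promoter held 6. The CRE core and the EGR motif themselves contain CpG, and the shares over all promoters were not matched for CpG content. All 250 bases of 8 of the 9 stretches lay inside an H3K27Ac peak in each diet. The exception was Egr4, whose stretch held no H3K27Ac in any diet and lay inside H3K27Me3 over 250 bases with RD, 143 bases with HFD and 0 bases with HFD-O304.

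In the order RD, HFD, HFD-O304, the libraries kept 83773042, 95218072 and 84694188 fragments for H3K27Ac and 74870300, 54166902 and 57324419 for H3K27Me3. The share of fragments removed as duplicates was 18.4%, 17.3% and 17.2% for H3K27Ac and 45.7%, 55.0% and 56.9% for H3K27Me3. The part of duplicates in the H3K27Me3 differences between diets was not tested. Because depth sets how weak a peak could be called, the level used here is the pileup of a peak (mean fragments covering a base) divided by the uniform background pileup of its library. The lowest level called was 2.40, 2.26 and 2.37 for H3K27Ac and 2.74, 3.10 and 2.97 for H3K27Me3 in RD, HFD and HFD-O304 islets. As a check of the tissue, H3K27Ac lay at the gene start of 7, 8 and 7 of 12 endocrine islet markers in the same order, of 1 of 6 acinar markers in each diet, of 0, 1 and 1 of 3 duct markers, and of none of 3 endothelial and 3 leukocyte markers. With any transcript start the endocrine count was 8, 9 and 8 and the duct count 1, 1 and 2, while the other counts stayed the same. Of all genes, 43.9%, 49.7% and 49.2% had H3K27Ac at the gene start in the same order of diets. With any transcript start the shares were 47.2%, 53.3% and 52.6%, so the endocrine counts were not far above those over all genes. The acetylated endocrine markers included the transcription factor genes Pdx1, Nkx6-1 and Mafa and the secretory genes Ucn3 and Chga in every diet, and the hormone gene Ins1 in RD and HFD islets at levels of 2.86 and 3.12. No peak was called at the gene starts of the hormone genes Ins2, Iapp, Gcg and Sst. The annotated Ins2 gene spans chr7:142678656-142743381 (minus strand), so only its far end at 142743381 was examined as the gene start. In HFD islets all other endocrine markers had a peak at the gene start. The count of 9 there with any transcript start thus takes in another start of these hormone genes, so they cannot all be read as unacetylated. In pooled islets, fewer cells carrying a mark and less of the mark per cell cannot be told apart.

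H3K27Ac covered the gene start of 8 of the 10 genes in RD, HFD and HFD-O304 islets alike. Of all protein-coding genes, 43.9%, 49.7% and 49.2% had such a peak in the same order of diets. The 8 genes were the 4 AP-1 genes, Egr1 and the 3 Nr4a genes, and no H3K27Ac was called at the GENCODE starts of Egr4 and Atf3. None of the 10 genes had the mark in some diets and not in others, as 9.98% of all genes had. At that share few or none of 10 genes would differ, so this count does not set them apart from other genes. When any annotated transcript start was allowed, Atf3 joined and the count rose to 9 of 10 in each diet, beside 47.2%, 53.3% and 52.6% of all genes.

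**Figure D1:**
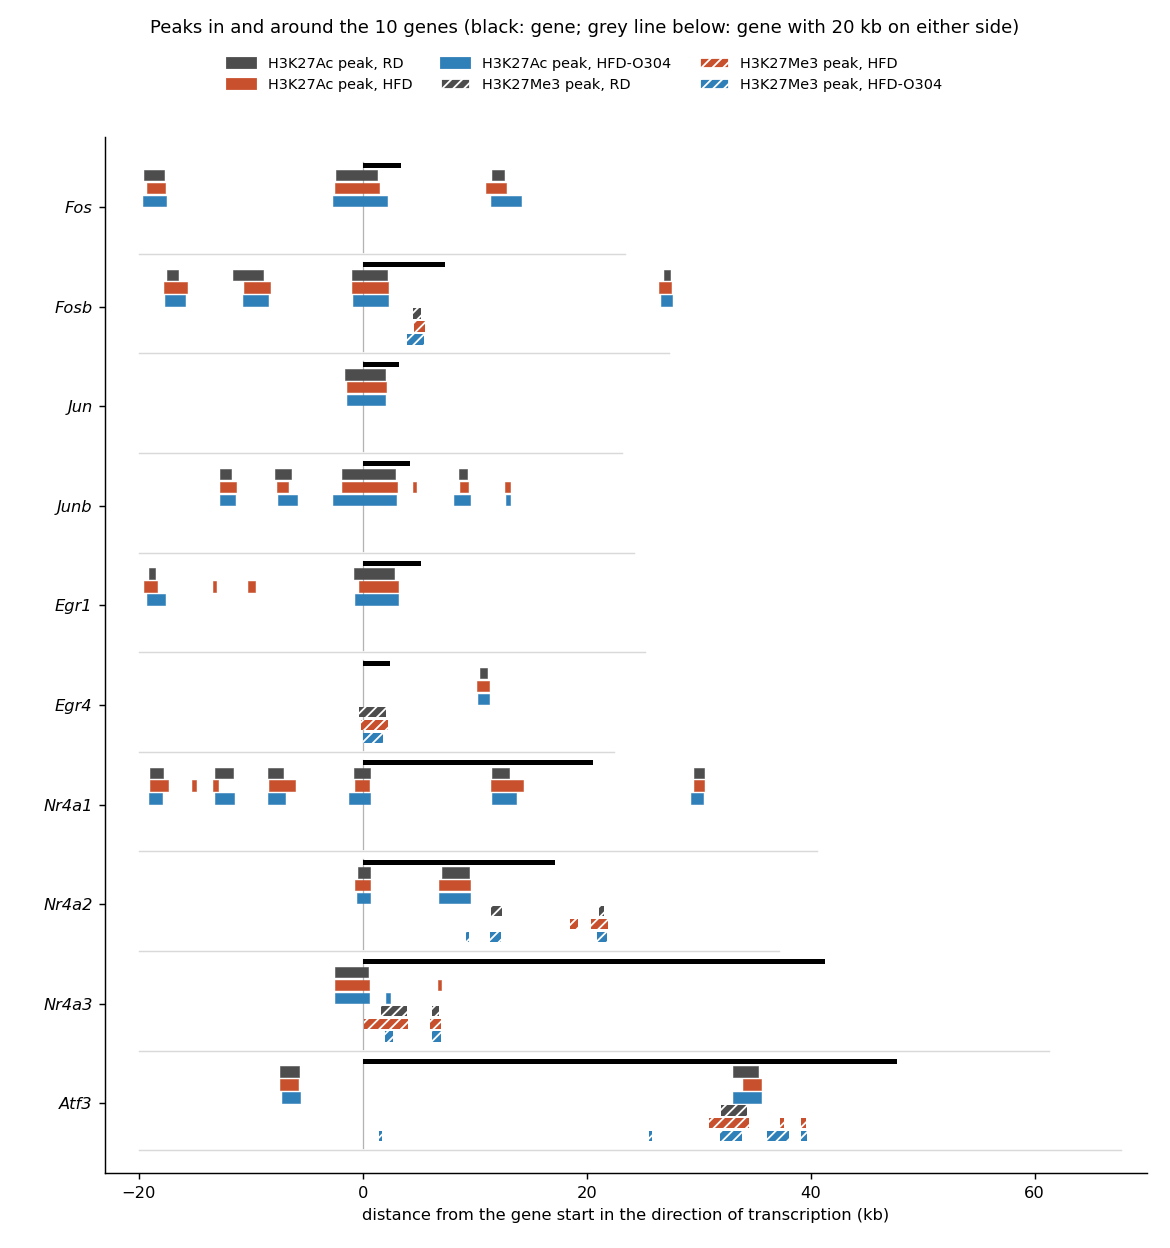
Peaks in the gene and 20.0 kb on either side for the 10 genes, drawn by distance from the gene start (kb, x axis); filled bars are H3K27Ac and hatched bars H3K27Me3, in grey for RD, red for HFD and blue for HFD-O304 islets. H3K27Ac lies over the start of 8 genes in all 3 diets, and H3K27Me3 is drawn only for Fosb, Egr4, Nr4a2, Nr4a3 and Atf3.

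The acetylated starts of the AP-1 genes were wide. At Fos (chr12:85473890-85477273, plus strand) the peak measured 3702 bp in RD islets, 3928 bp with HFD and 4875 bp with HFD-O304, with levels of 4.64, 4.85 and 4.64. Its upstream edge stayed between -2687 and -2432 bp while the downstream edge lay at 1269, 1472 and 2187 bp, so the peak took in 37.5%, 43.5% and 64.6% of the gene. The HFD-O304 peak was thus the widest of the 3 with the level of the RD peak. At Fosb (chr7:19302696-19310051, minus strand), which encodes the Fos paralog known for its stable splice form in brain, the width was 3132, 3215 and 3108 bp and the level 4.45, 4.31 and 4.53. At Jun (chr4:95049034-95052222, minus strand), a gene without introns, the width was 3520, 3456 and 3374 bp and the level 4.76, 4.51 and 4.72. Both genes kept nearly the same peak in each diet, and the Jun peak spanned over 60% of the gene, 61.2%, 64.4% and 60.9% by diet. At Junb (chr8:84974484-84978718, minus strand), also intronless, the peak was the widest of the 8 in every diet, at 4714, 4935 and 5661 bp, with levels of 4.00, 3.90 and 4.15.

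Egr1 (chr18:34859823-34864984, plus strand) differed from Fos in the side on which the mark lay. Its peak began at -797, -339 and -696 bp and ran to 2822, 3114 and 3164 bp in RD, HFD and HFD-O304 islets, so most of it lay inside the gene, whose product is the founding zinc finger factor of the Egr family. The width was 3620, 3454 and 3861 bp and the level 4.26, 4.86 and 4.75, lowest in RD islets. The Nr4a genes were less uniform. At the GENCODE start of Nr4a1 (chr15:101254269-101274795, plus strand) the width was 1463, 1179 and 1857 bp and the level 3.38, 3.87 and 4.07. At Nr4a2 (chr2:57106830-57124003, minus strand), whose product is needed for dopamine neurons, the width was 1042, 1335 and 1168 bp and the level 4.57, 4.01 and 4.13, highest in RD islets. At Nr4a3 (chr4:48045153-48086447, plus strand) the width was 2981, 2976 and 3028 bp and the level 3.36, 3.66 and 3.54. The Nr4a3 peak lay almost wholly upstream, from about -2.5 kb, with its downstream edge at 491, 519 and 571 bp.

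**Figure D2:**
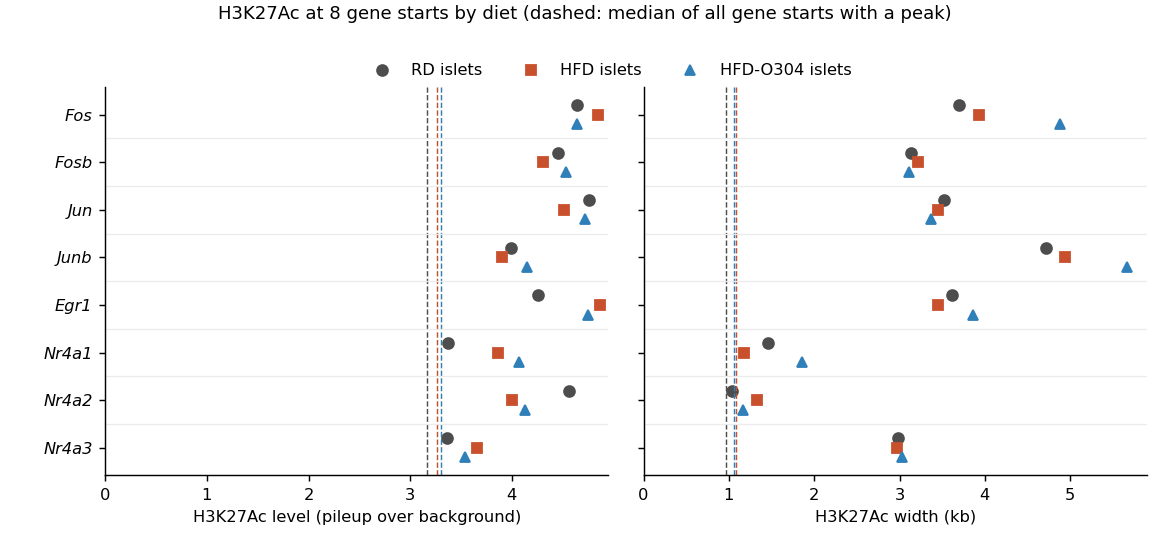
H3K27Ac level (left, pileup over background) and width (right, kb) at 8 gene starts, with 1 point per diet and gene and no error bars since each diet has 1 peak list; dashed lines are the medians of all acetylated gene starts. The widths of Fos and Junb are largest in HFD-O304 islets, at 4875 and 5661 bp, while the levels of the same genes differ little. Their width ratios over RD islets, 1.32 and 1.20, lie at the 70.9 and 61.5 percentile of all starts acetylated in both. Over HFD islets the ratios are 1.24 and 1.15, at the 82.2 and 75.6 percentile. These widths therefore do not set Fos and Junb apart from other starts.

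Set against all acetylated gene starts, 6 of the 8 genes stood at the wide end, with widths at or above the 95.6 percentile in every diet, and Nr4a1 and Nr4a2 ranged from the 54.7 to the 84.8 percentile. The median over all gene starts with a peak was 969, 1086 and 1062 bp for the width and 3.17, 3.27 and 3.30 for the level (RD, HFD, HFD-O304). Widths of 3 kb or more were found at 5, 5 and 6 of the 8 genes, beside 2.48%, 4.31% and 3.73% of all acetylated gene starts. The 5 were Fos, Fosb, Jun, Junb and Egr1, joined by Nr4a3 in HFD-O304 islets. The widths nearest to the limit were those of Nr4a3, 2981 and 2976 bp just below it in RD and HFD islets and 3028 bp just above it in HFD-O304 islets, followed by 3108 bp for Fosb in HFD-O304 islets. The width of Junb ranked 75 of 9677 acetylated starts in RD islets, 117 of 10946 with HFD and 90 of 10838 with HFD-O304.

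**Figure D3:**
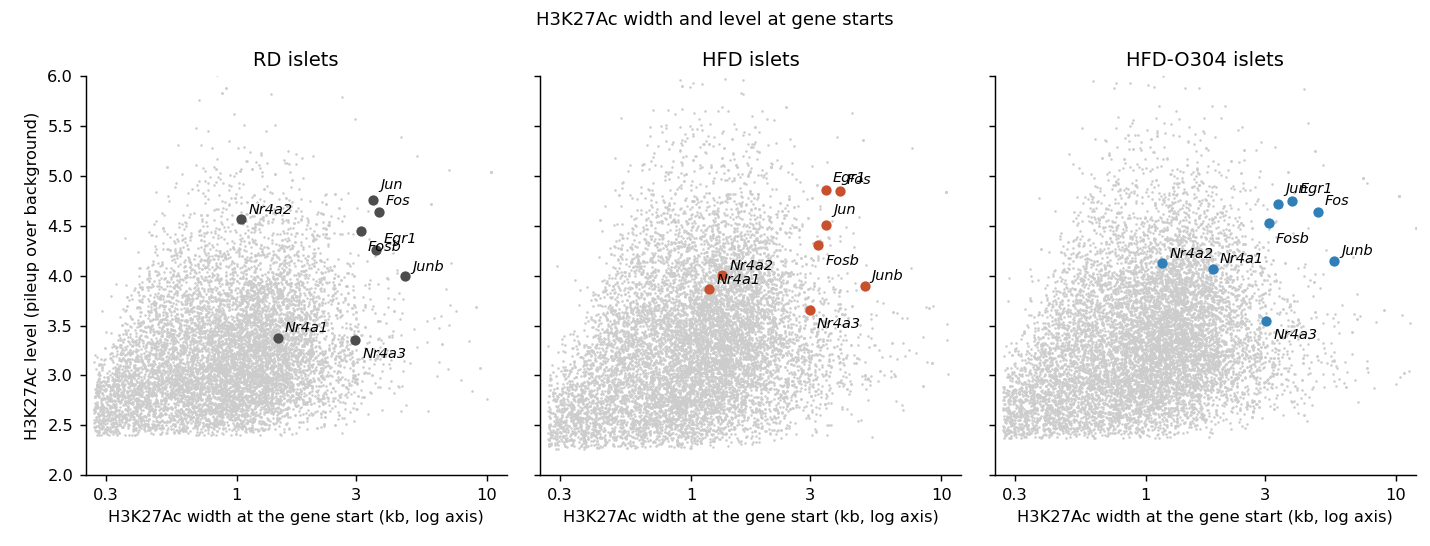
H3K27Ac width (kb, log axis) against level (pileup over background) at every acetylated gene start (grey) in the islets of each diet, with the 8 named genes in colour; 43, 58 and 54 starts wider than 12 kb or above a level of 6 lie outside the axes. Fos, Fosb, Jun, Junb, Egr1 and Nr4a3 sit to the right of most grey points, while Nr4a1 and Nr4a2 sit among them.

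Between diets the levels at the 8 starts moved little. In HFD over RD islets the ratios ran from 0.877 at Nr4a2 to 1.15 at Nr4a1, with a median of 1.01, beside 1.05 over all 9495 starts acetylated in both. Both extremes turned direction when estimated fragments in the peak per kept fragment, which grow with width, took the place of the level, at 1.12 for Nr4a2 and 0.923 for Nr4a1. None of the 8 was higher by more than 25% or lower by more than 20%, where 6.84% of all starts were higher and 0.600% lower past those limits. In HFD-O304 over HFD islets the ratios ran from 0.956 at Fos to 1.06 at Junb with a median of 1.04, beside 1.01 over 10325 starts. Again 0 of the 8 passed the limits, where 2.00% of all starts were higher and 1.24% lower. In HFD-O304 over RD islets the ratios ran from 0.904 at Nr4a2 to 1.21 at Nr4a1 with a median of 1.03, beside 1.06 over 9443 starts, and 0 of the 8 passed the limits, where 7.92% were higher and 0.572% lower. At these background rates few or none of 8 starts would be past the limit, so the count of 0 does not set the 8 genes apart from other genes.

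The counting interval excluded a ratio of 1 at Egr1 and Nr4a1. Egr1 was higher in HFD than in RD islets by a ratio of 1.14 (95% counting interval 1.03 to 1.26) and in HFD-O304 than in RD islets by 1.12 (1.01 to 1.24). At its GENCODE start only, Nr4a1 was higher in HFD-O304 than in RD islets by 1.21 (1.02 to 1.43). In each of these comparisons the ratio lay inside the range that held the middle 90% of all acetylated starts. With 24 ratios examined and the spread between animals not measured, these 3 ratios are descriptions of the merged libraries. The 3 comparisons share libraries, so they are not independent of each other.

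**Figure D4:**
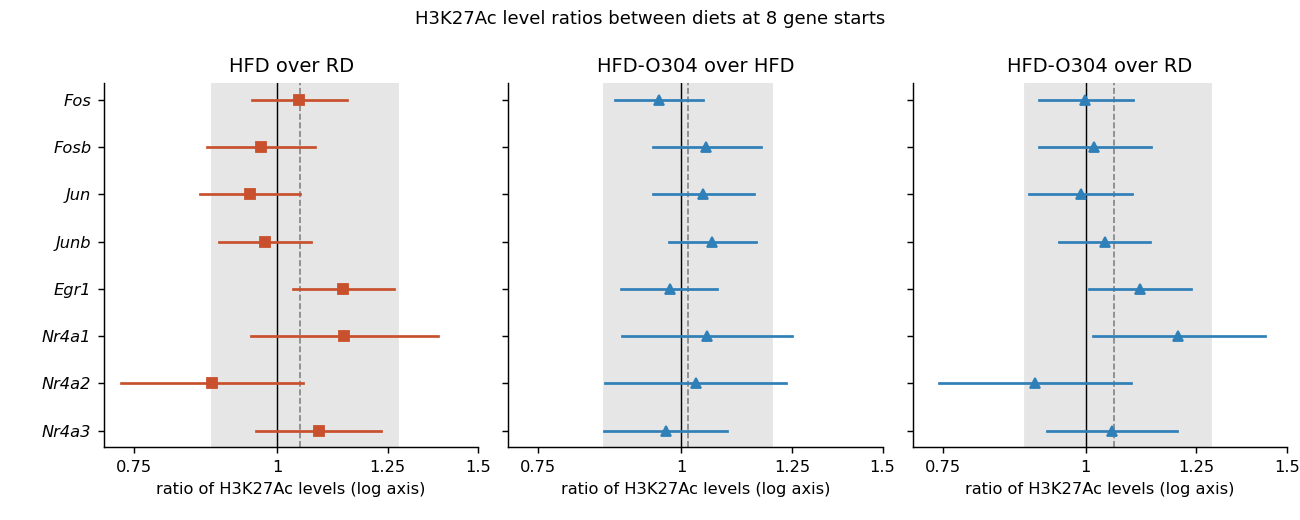
Ratio of H3K27Ac levels between diets (log axis) at 8 gene starts; points are ratios, bars are 95% counting intervals, the grey band holds the middle 90% of all acetylated gene starts and the dashed line is their median. Every point lies inside or at the edge of the band, and the bars of Egr1 (HFD over RD, HFD-O304 over RD) and Nr4a1 (HFD-O304 over RD) end above 1.

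Several of these genes have starts far apart, and the marks differed between them. Nr4a1 has a start 12.6 kb downstream of the GENCODE gene start, the one that RefSeq gives, and it lay in a separate H3K27Ac peak of 1507, 2931 and 2152 bp (RD, HFD, HFD-O304) at levels of 3.54, 3.76 and 3.59. The GENCODE and RefSeq starts of Nr4a1 were therefore acetylated in every diet. A further annotated start, 18.6 kb downstream of the gene start, had no H3K27Ac within 1.0 kb in any diet. At the peak over the RefSeq start of Nr4a1, the ratio of HFD-O304 over RD islets was 1.01 (0.858 to 1.20). Nr4a2 has an internal start 8.97 kb downstream in a peak of 2339, 2736 and 2740 bp, wider than the one at its gene start. Its level there was 3.36, 3.83 and 3.14, highest in HFD islets. The ratio of HFD-O304 over HFD islets there was 0.819 (0.718 to 0.936). Among the H3K27Ac regions away from gene starts, it was the one ratio whose counting interval excluded 1, of 12, 13 and 12 computed in the 3 comparisons. Over all 16357 H3K27Ac regions called in both lists, the middle 90% of this ratio ran from 0.863 to 1.20.

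Atf3 (chr1:191170296-191218039, minus strand) had no H3K27Ac at the GENCODE gene start, and its marks lay elsewhere. The RefSeq start, 34.7 kb downstream, lay in a peak of 2287, 1604 and 2535 bp in RD, HFD and HFD-O304 islets. Its levels of 2.72, 2.99 and 2.68 were below those of the 8 acetylated gene starts in each diet. A stronger peak stood outside the gene at -6.5 kb in RD islets, with widths of 1646, 1661 and 1576 bp and levels of 4.33, 4.76 and 4.17. The strongest acetylation of this locus thus lay upstream of the gene in every diet and not over a start.

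H3K27Me3 lay at the gene start of Egr4 in every diet and of Nr4a3 in HFD islets, which made 1, 2 and 1 of the 10 genes in RD, HFD and HFD-O304 islets. Over all genes the percentages were 6.62, 8.45 and 8.88. With any transcript start the counts were 4, 3 and 4 of 10, beside 8.01%, 9.88% and 10.6%, with Atf3 and Nr4a3 in each diet and Nr4a2 in RD and HFD-O304 islets. In the wider window of the gene and 20.0 kb on either side, Fosb, Egr4, Nr4a2, Nr4a3 and Atf3 held H3K27Me3 in every diet, beside 29.9%, 30.6% and 36.4% of all genes. No H3K27Me3 was called in the loci of Fos, Jun, Junb, Egr1 and Nr4a1.

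Egr4 (chr6:85511121-85513589, minus strand), which encodes a relative of Egr1 best known from neurons and germ cells, was the one gene with H3K27Me3 and no H3K27Ac at its start. The H3K27Me3 peak measured 2348, 2408 and 1821 bp (RD, HFD, HFD-O304) at levels of 3.23, 3.75 and 3.76, and covered 82.5%, 91.7% and 73.7% of the gene. The level ratio was 1.16 in HFD over RD islets (0.981 to 1.37), where the median over all starts with H3K27Me3 in both was 1.21. The only H3K27Ac of this locus lay at the start of the neighbouring gene Fbxo41, at levels of 2.78, 3.66 and 3.19.

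Nr4a3 carried H3K27Me3 downstream of its acetylated start. The nearest H3K27Me3 peak began 1612 bp from the start in RD islets, 143 bp with HFD and 2014 bp with HFD-O304, and it measured 2344, 3888 and 669 bp at levels of 2.85, 4.00 and 3.55. In HFD islets it therefore reached into the 1.0 kb window and overlapped the H3K27Ac peak by 377 bp, and in the other diets it began beyond that peak. In HFD-O304 islets a second, weak H3K27Ac peak of 358 bp at a level of 2.53 lay wholly inside the H3K27Me3 peak. Of all genes, 2.92% had H3K27Me3 at the start in HFD and not in RD islets, and 1.38% in HFD and not in HFD-O304 islets. The level ratio of this region was 1.40 in HFD over RD islets (1.21 to 1.64) and 0.887 in HFD-O304 over HFD islets (0.684 to 1.14). The median over all H3K27Me3 regions called in both lists was 1.12 for HFD over RD islets, with the middle 90% from 0.904 to 1.38. Over the gene starts with H3K27Me3 in both lists it was 1.21, with the middle 90% from 1.02 to 1.43, so the Nr4a3 ratio lay just above the first range and inside the second. The RD level of 2.85 was below the lowest level that could be called in the HFD list, 3.10, and the part of calling limits in this difference was not tested. A further H3K27Me3 peak near 6.5 kb was present in each diet, and in HFD islets it wholly held an H3K27Ac peak of 300 bp at a level of 2.56.

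In lists of 15517, 15438 and 22049 H3K27Me3 peaks (RD, HFD, HFD-O304), the number of peaks at Atf3 was 1, 3 and 5. One was shared by all diets and lay just before the acetylated RefSeq start, from 32021 to 34340 bp in RD, 30918 to 34479 bp in HFD and 31898 to 33858 bp in HFD-O304 islets, counted from the GENCODE start. It overlapped the H3K27Ac peak by 1292, 553 and 811 bp. Its level was 3.12, 3.87 and 3.41, a ratio of 1.24 in HFD over RD islets (1.06 to 1.45). This ratio lay inside the range given above for all H3K27Me3 regions called in both lists, 0.904 to 1.38 with a median of 1.12. It therefore does not set the Atf3 region apart. The RD level of 3.12 was close to the lowest level called in the HFD list, 3.10. The part of calling limits in the Atf3 ratio was not tested. Beyond the RefSeq start, HFD islets had peaks of 325 and 472 bp and HFD-O304 islets peaks of 2001 and 570 bp, near 37 and 39 kb. HFD-O304 islets alone had 2 more, of 307 and 281 bp, near 25.7 and 1.6 kb, at levels of 3.01 and 3.10. The lowest level called in that list was 2.97. With lists of equal size, the H3K27Me3 peaks over the 10 loci fell from 12 to 6 in HFD-O304 islets. The part of list size in the Atf3 counts was not tested. At Fosb the H3K27Me3 peak lay in the downstream part of the gene, away from the acetylated start, with widths of 653, 915 and 1469 bp and levels of 2.999, 3.49 and 3.19. At Nr4a2 a peak beyond the 3′ end, near 21 kb, was called in every diet, and in HFD-O304 islets a peak of 236 bp lay inside the H3K27Ac peak at the internal start.

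**Figure D5:**
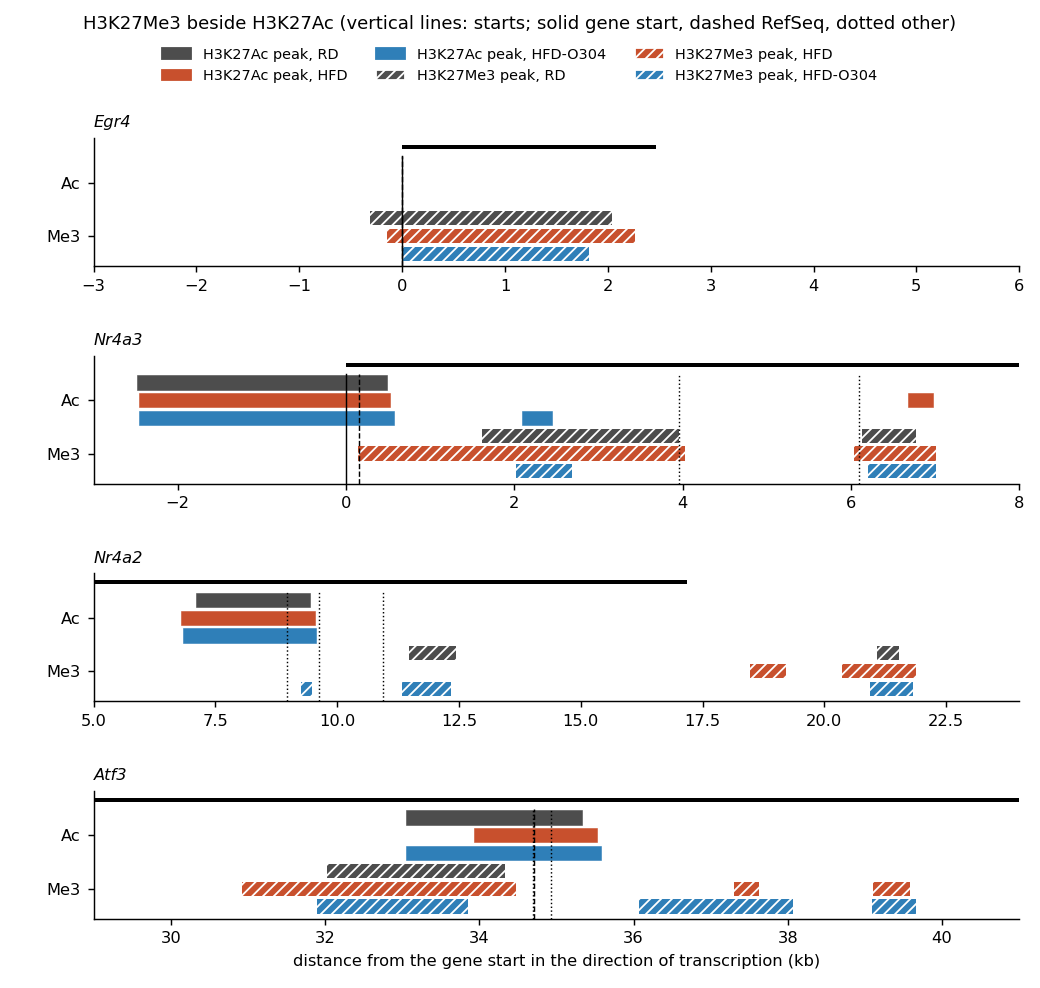
H3K27Ac (filled, upper 3 tracks) and H3K27Me3 (hatched, lower 3 tracks) peaks near starts of Egr4, Nr4a3, Nr4a2 and Atf3 by distance from the gene start (kb); black bars are the gene, solid lines the GENCODE gene start, dashed lines the RefSeq start and dotted lines other transcript starts. At Nr4a3 the HFD peak of H3K27Me3 begins 143 bp from the start, against 1612 bp in RD and 2014 bp in HFD-O304 islets.

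Counting every H3K27Ac peak in the gene and its flanks, the 10 loci held 26, 32 and 28 (RD, HFD, HFD-O304). Of these, 8 in each diet lay at the genes' own starts, 6 in each diet at the starts of neighbouring genes, and 12, 18 and 14 elsewhere. The neighbours were Rtn2 beside Fosb, Rnaseh2a, Gm49661, Prdx2 and Hook2 beside Junb, Reep2 beside Egr1, Fbxo41 beside Egr4 and Atg101 beside Nr4a1, and a peak at such a start cannot be assigned to the named gene. H3K27Ac covered a median of 8.70%, 10.1% and 10.0% of the 10 windows, beside 0.861%, 1.30% and 1.23% over all genes. Egr4 was the barest locus, with 1.30%, 2.42% and 2.37% of its window covered, all of it at the start of Fbxo41. Jun had no H3K27Ac other than at its start in any diet, which covered from 7.81% to 8.15% of its window. Fos had flanking peaks near -18.6 and 12.1 kb in RD islets, both kept in HFD and HFD-O304 islets, and Nr4a1 had the most, with 4, 5 and 4 peaks other than at GENCODE gene starts, the one over its RefSeq start included.

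Joined over the diets, the H3K27Ac peaks made 33 regions, of which 26, or 78.8%, were called in all 3 diets, beside 50.5% of all H3K27Ac regions. The 7 others lay away from gene starts, where 12 of 19 regions, or 63.2%, were called in all 3 diets. All 8 regions at the genes' own starts and all 6 at neighbouring starts were shared. The 50.5% takes in regions of every kind and was not split in this way, so it is not a like background for the 78.8%. Of the 7 regions not shared by all diets, 5 were called in HFD islets alone, at Junb, Egr1, Nr4a1 and Nr4a3, with 2 of them at Egr1. They were narrow, from 274 to 646 bp, at levels from 2.32 to 2.84, against lowest callable levels of 2.40 with RD and 2.37 with HFD-O304, and 1 of the 5, at Junb, was below both. The HFD list had the most fragments, and the part of depth in these calls was not tested. The share of all H3K27Ac regions called in HFD islets alone was not computed, so the count of 5 does not set these genes apart. For the regions away from starts called in both lists, the H3K27Ac ratio had a median of 1.08 for HFD over RD (12 regions), 0.992 for HFD-O304 over HFD (13 regions) and 0.999 for HFD-O304 over RD islets (12 regions). The 13 H3K27Me3 regions were shared less, with 6, or 46.2%, in all 3 diets, beside 34.5% of all H3K27Me3 regions. Away from gene starts, 4 of 11 H3K27Me3 regions, or 36.4%, were shared.

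Of 20 other immediate early genes, H3K27Ac lay at the gene start of 15, 17 and 16 (RD, HFD, HFD-O304), with median widths of 1952, 2118 and 2274 bp, beside 43.9%, 49.7% and 49.2% of all genes. H3K27Ac presence differed between diets at Arc and Fosl1. Arc, which encodes a synaptic protein, was called in HFD and HFD-O304 islets at levels of 3.03 and 3.50. Fosl1, an AP-1 gene, was called in HFD islets alone at a level of 2.37 close to the calling limit. Of all genes, 9.98% had the mark in some diets and not in others, so these differences do not set the 20 genes apart. H3K27Me3 was called at the start of 4, 5 and 5 of the 20, beside 6.62%, 8.45% and 8.88% of all genes. It lay at Egr3, Fosl1 and Klf2 in every diet, at Ier5 in RD islets, and at Egr2 and Ccn1 in HFD and HFD-O304 islets. Egr2 and Egr3, like Egr4, had no H3K27Ac at the gene start in any diet, so Egr1 was the one of the 4 Egr genes with an acetylated start. Klf2, which encodes a flow-responsive factor of endothelium, had both marks in each diet. Of 15 regulators that act at immediate early genes, such as Srf, Creb1 and Ep300, 14 had H3K27Ac at the start in each diet, all but Elk1. None of the 15 had H3K27Me3, which at the share over all genes is near the background.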

How the data were processed

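Islet ChIP-seq samples were grouped by mark and diet from their titles. Per the study's methods, reads were mapped with bowtie2 to GRCm38 (Ensembl 96) and the 2 replicates merged. Per the file headers, the authors called broad peaks with MACS 2.1.2 without input control or local background, against an effective genome size of 1.87e+09 bp, with a q cutoff of 0.01 (the methods name this cutoff and list options with another). The deposited values are the pileup, a signal of mean coverage not scaled for depth, a fold ratio of pileup to uniform background with 1 added to each, and −log10 p and q. Lists of single replicates were not analysed here, so no spread between replicates could be measured.

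Here each pileup was divided by its library's background, computed from the kept fragments and fragment length in the header. Where several peaks overlapped a window, widths were summed and levels averaged by length. Level ratios have exact conditional binomial 95% intervals on fragments estimated from pileup and width; fragments were not observed directly. Peaks were joined where they shared 1 bp. Gene starts came from GENCODE release 21 of the mouse annotation, promoter sequences from RefSeq (GRCm38.p6). The members and lists were chosen with earlier results of these data known, and the 3 kb width limit after seeing the values. Named genes were all 10 members, listed genes whose H3K27Ac differed between diets or that held H3K27Me3, and neighbours whose start overlapped a counted peak; Elk1, Srf, Creb1 and Ep300 and the tissue markers were named outside this rule, after their values were seen. Listed symbols Cyr61, Mkl1 and Mkl2 were matched as Ccn1, Mrtfa and Mrtfb. The functions were tested on simulated data. Python 3.11.15, pandas 2.3.3 and scipy 1.17.1 were used.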

Additional observations from a re-analysis of the deposited data

How the results depend on the processing

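No paired analysis was possible because peaks had been called on combined replicates, and no replicate could be left out for the same reason. The H3K27Ac counts at gene starts stayed at 8 or 9 of 10 under every alternative run, and 9 was reached with any transcript start, or with the RefSeq starts and Egr1, which has none, at its GENCODE start (chosen after seeing the data). The counts of H3K27Ac locus peaks and of wide starts stayed within 1.5 times, also at a limit of 2 kb, chosen after seeing the data. H3K27Me3 was less stable. Its count at gene starts, 1, 2 and 1 in RD, HFD and HFD-O304 islets, became 2 in RD and 2 in HFD-O304 islets with 2000 bp on either side or the RefSeq starts, 4 in RD and 4 in HFD-O304 islets with any transcript start, and 0 in RD and 1 in HFD islets with −log10 q of at least 5. Its locus peaks, 7, 9 and 12, fell to 0, 1 and 1 at −log10 q of at least 5, to 3 in RD islets with a fold cutoff common to the lists, and to 6 in HFD-O304 islets with lists of equal size. Past 1.1-fold instead of the limits used, 2 H3K27Ac starts were higher and 1 lower in HFD over RD islets, and 2 were higher and 1 lower in HFD-O304 over RD islets. With estimated fragments in the peaks per kept fragment, which grow with width, 1 start (Nr4a1, ratio 1.66) was higher past the limit in HFD-O304 over HFD islets, and 2 (Fos, 1.32, and Nr4a1, 1.53) in HFD-O304 over RD islets. By that measure 9 of 24 ratios left their counting interval; with the deposited fold or the level over the median of shared starts 0 did. The strongest peak gave the same values by construction, since each start had 1 peak. The H3K27Me3 libraries had fewer kept fragments than the H3K27Ac libraries, and the weakest H3K27Me3 call needed a higher level over background. The cause of these changes was not tested.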
